A study of Mus musculus with 20 samples.

Results

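Il10 and the genes through which its protein acts were read on every array of a study of mouse blood after radiation. The set was given by name: Il10, the receptor genes Il10ra and Il10rb, the kinase genes Jak1 and Tyk2, the transcription factor gene Stat3, and Socs3, Bcl3, Nfil3 and Sbno2, which IL-10 induces. All non-control probes carrying these names were taken, which gave 12 probes for 10 genes out of 31093 gene names on the array. The study asked how whole-body X-rays act on blood RNA in mice with and without Il10. The mice labelled Il10-/- were of the strain B6.129P2-Il10tm1Cgn/J and those labelled WT were C57BL/6. Both were male littermates aged 8 to 10 weeks, bred from heterozygous parents and given 0 Gy (sham) or 7 Gy, with blood drawn from the heart 24 h later. Each of the 4 groups held 5 mice and each mouse 1 array: unirradiated WT, irradiated WT, unirradiated Il10-/- and irradiated Il10-/-.

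IL-10 is a cytokine that holds back inflammation. It binds a receptor built from IL-10RA and IL-10RB chains, whose kinases JAK1 and TYK2 phosphorylate STAT3, and STAT3 dimers then switch on genes that dampen the response of macrophages and other leukocytes. In blood, monocytes, neutrophils and lymphocytes carry parts of this pathway, and mice without IL-10 can develop gut inflammation that acts on the blood. Other cytokines, IL-6 and G-CSF among them, also act through STAT3, so the RNA of Socs3 or Bcl3 is not a reading of IL-10 alone.

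Levels here are log2 intensities minus the median of all non-control probes on the same array, so 0 marks a probe as bright as the middle probe of its array. Levels of different probes are not comparable with each other, since probes bind with different strength. The arrays were unequal: 29.9% to 57.8% of spots were well above background. Under 40% was found on 4 arrays, namely unirradiated WT replicates 4 (38.5%) and 5 (29.9%) and irradiated Il10-/- replicates 3 (34.6%) and 4 (39.0%). Each slide held 1 array of every group with a single replicate number, so differences could also be taken within a slide. Replicates 1 and 2 lay close together in all 4 groups, with a robust SD of their differences of 0.18 to 0.27 against 0.29 to 1.26 for the other 36 pairs. This was still more than the 0.12 to 0.13 that repeated spots gave. Repeated spots hold noise within an array only, so this cannot show whether the arrays come from different mice. Replicates 1 and 2 were counted as separate mice as labelled. Slides 1 and 2 hold them, so a count over slides may hold fewer separate readings than slides. Such counts were not taken over all probes.

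A probe was counted as changed when limma, fitted over 18581 probes of 15743 genes, gave p below 0.001 and a false discovery rate below 10%. These probes had to be unmarked on over 75% of arrays and to vary by 1.5-fold on at least 20% of them. Of the 12 probes, 9 from 7 genes met both conditions. The Il10 probe failed the first because it was marked on 8 of 20 arrays, and Il10rb and Tyk2 failed the second because they varied that much on 10% and 15% of arrays.

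Il10, the ligand, had 1 probe printed in 10 spots per array. Its 60 bases start at base 701 of the transcript, at chr1:132920943-132921002 on the plus strand of mm9, and the first 30 are shown because their place decides what the probe can see: ggaaaacctcgtttgtacctctctccgaaa. The targeted allele is described as replacing part of the first exon. Exon coordinates were not available here, so only the start in the transcript places the probe beyond that part, and whether it binds RNA of the targeted allele was not tested. Its level was therefore not used as a check of the genotype labels. The 5 unirradiated WT arrays read -1.85, -2.01, -1.72, -1.06 and -1.07 for Il10, and the 5 irradiated WT arrays -2.34, -2.64, -1.63, -1.30 and -1.35. The unirradiated Il10-/- arrays read 2.72, 3.00, 2.41, 2.49 and 3.11, and the irradiated Il10-/- arrays 1.94, 2.18, 2.86, 3.29 and 3.26. Every Il10-/- array was above every WT array. Directions between genotypes are given as labelled. Apart from Il10, summed neutrophil markers were higher on every unirradiated Il10-/- array than on every unirradiated WT array.

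On 0 of the 10 WT arrays were most spots of the Il10 probe well above background, while on each of the 10 Il10-/- arrays all spots were. The raw intensities were 2.17 to 5.54 in WT and 41.5 to 111 in Il10-/-. By a weaker mark, a signal significantly above background, the probe failed on 8 of the 10 WT arrays and passed on unirradiated replicate 1 and irradiated replicate 3. Since the WT signal lay at or near background, the size of the difference was bounded from below. Each WT array was given the level of its dimmest probe with all spots well above background. On that basis Il10 was at least 7.12-fold higher in unirradiated Il10-/- and at least 7.995-fold higher in irradiated Il10-/- mice. In Il10-/- mice the means were 2.75 ± 0.31 (SD, n = 5) without and 2.71 ± 0.62 (SD, n = 5) with 7 Gy, a difference smaller than the spread within either group. In WT mice neither an effect of dose on Il10 nor an order of the 2 doses can be read at this signal. In bulk blood, fewer cells of a type and less RNA per cell cannot be told apart, here or in any result that follows.

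**Figure D1:**
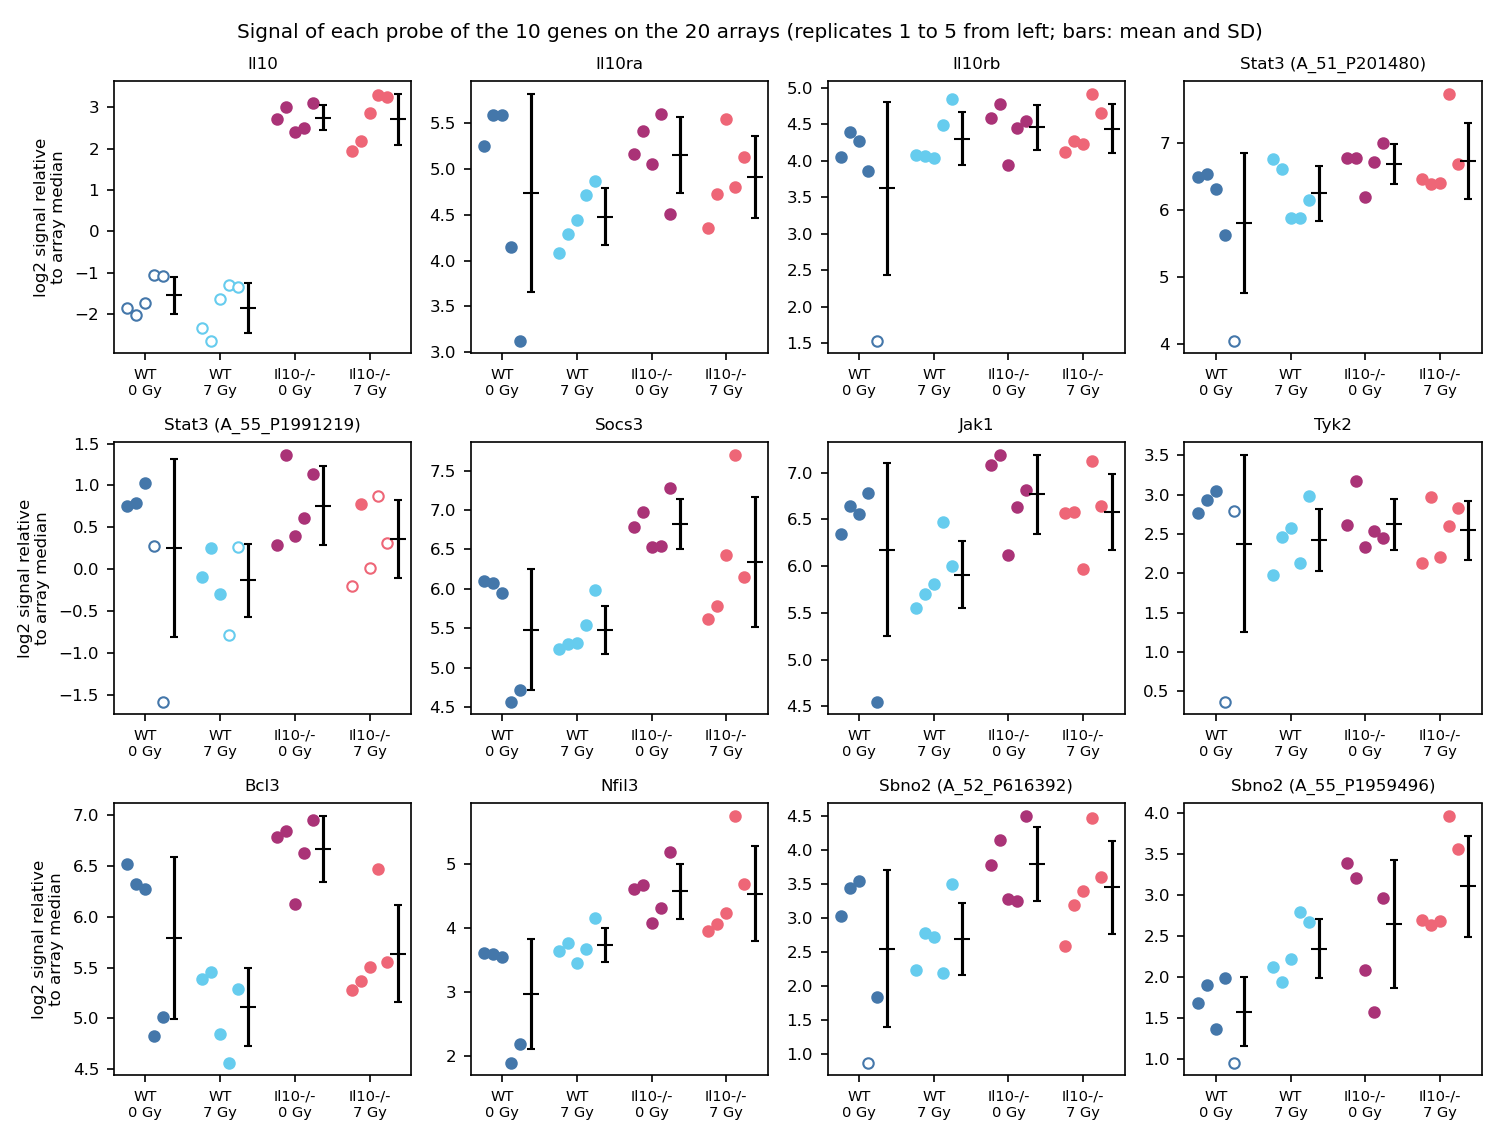
Level of each of the 12 probes on each of the 20 arrays, in log2 relative to the array median (vertical axis), by group (horizontal axis); bars give the mean and SD of 5 arrays, and open circles mark arrays on which not all spots of the probe were well above background. The Il10 panel shows WT arrays between -2.64 and -1.06 and Il10-/- arrays between 1.94 and 3.29; in most other panels the groups overlap and replicates 4 and 5 of unirradiated WT lie low.

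Il10ra encodes the ligand-binding chain of the receptor. Unirradiated WT arrays read 5.25, 5.59, 5.59, 4.15 and 3.12, and unirradiated Il10-/- arrays 5.17, 5.41, 5.06, 5.60 and 4.51. The first 3 WT arrays lay within the Il10-/- range and the last 2 below it, and the difference in means was 0.41 (SE 0.47), with an adjusted p from limma of 0.596. It turned to -0.33 when the 4 weak arrays were left out and to -0.06 under quantile normalization. With 7 Gy the levels were 4.09 to 4.87 in WT and 4.35 to 5.55 in Il10-/- mice. The irradiated Il10-/- array was the higher on 5 of 5 slides, by 0.09 to 1.10. The mean difference of 0.44 had an adjusted p of 0.548 in limma and was -0.23 after normexp correction. The means were 4.74 ± 1.08 and 4.48 ± 0.31 in unirradiated and irradiated WT and 5.15 ± 0.41 and 4.91 ± 0.45 (SD, n = 5) in unirradiated and irradiated Il10-/- mice. In WT mice the dose difference of Il10ra was -0.26, but it was -1.16, -1.31 and -1.15 on slides 1 to 3 and 0.56 and 1.74 on slides 4 and 5, which hold the weak unirradiated WT arrays. Without the 4 weak arrays it was -0.998, with an adjusted p of 0.0162 in limma that did not pass, in a range of 0.0162 to 0.996 over alternatives, and after normexp background correction it was 0.22.

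Il10rb encodes the second chain, which the receptors of IL-22 and the lambda interferons also use. Its 20 levels ran from 3.86 to 4.92 apart from a single array at 1.54, unirradiated WT replicate 5, which was also the array with the fewest spots above background. The group means were 3.62 ± 1.18, 4.31 ± 0.36, 4.46 ± 0.31 and 4.44 ± 0.33 (SD, n = 5) for unirradiated WT, irradiated WT, unirradiated Il10-/- and irradiated Il10-/-. The 0.84 between the unirradiated genotypes had an adjusted p of 0.369 in limma when the requirement of 1.5-fold variation was dropped, and came to 0.31 without that array.

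Jak1 and Tyk2 encode the kinases held by the receptor chains. Jak1 read 6.35, 6.65, 6.56, 6.78 and 4.55 in unirradiated WT and 7.08, 7.19, 6.12, 6.64 and 6.81 in unirradiated Il10-/-, a difference of 0.59 (SE 0.45, adjusted p 0.436, limma). It came to 0.19 without WT replicate 5 and to 0.25 without the 4 weak arrays. After 7 Gy it read 5.55, 5.70, 5.80, 6.48 and 6.01 in WT and 6.57, 6.58, 5.97, 7.13 and 6.64 in Il10-/-. The irradiated Il10-/- array was the higher on 5 of 5 slides, by 0.17 to 1.02, yet the ranges overlapped and the mean difference of 0.67 had an adjusted p of 0.411 in limma, and it was -0.17 after normexp background correction. Tyk2 means lay between 2.38 and 2.62 in the 4 groups, with 1 far lower array, unirradiated WT replicate 4 at 0.37. Its difference between unirradiated genotypes, 0.25, changed sign under 4 of 12 alternatives and carried no direction.

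Stat3, the factor these kinases act on, had 2 probes. The first (A_51_P201480) has 10 spots and read 6.50, 6.53, 6.32, 5.62 and 4.05 in unirradiated WT and 6.78, 6.77, 6.19, 6.71 and 6.99 in unirradiated Il10-/- mice. Here too WT replicates 4 and 5 lay below the rest, and the difference of 0.89 (SE 0.46) had an adjusted p of 0.330 in limma and came to 0.24 without the 4 weak arrays. In irradiated blood the WT arrays ran from 5.87 to 6.75 and the Il10-/- arrays from 6.39 to 7.73. The second probe (A_55_P1991219) sits further upstream in the transcript and ran from -1.58 to 1.37, with all groups overlapping and few irradiated Il10-/- arrays (1 of 5) well above background. Its difference between unirradiated genotypes was 0.50 (SE 0.48), with an adjusted p of 0.517 in limma, and -0.10 without the weak arrays.

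Socs3 encodes a feedback inhibitor that STAT3 induces and that restrains signaling by the IL-6 receptor family. It read 6.10, 6.07, 5.94, 4.57 and 4.72 in unirradiated WT and 6.78, 6.97, 6.53, 6.54 and 7.28 in unirradiated Il10-/- mice. Irradiated WT arrays read 5.23, 5.31, 5.31, 5.54 and 5.98, and irradiated Il10-/- arrays 5.62, 5.78, 6.43, 7.70 and 6.15. Without radiation every Il10-/- array lay above every WT array, while after 7 Gy the genotypes overlapped and Il10-/- replicate 4 stood well above the rest. The unirradiated difference was 1.34 (SE 0.41), or 2.53-fold, and higher in Il10-/- on 5 of 5 slides, by 0.58, 0.68, 0.90, 1.97 and 2.56. Its adjusted p in limma was 0.191, so it did not pass, and it came to 0.78 without the 4 weak arrays, with an adjusted p of 0.294 in a range of 0.104 to 0.708 over alternatives. The group means were 6.82 ± 0.31 for unirradiated and 6.34 ± 0.83 for irradiated Il10-/-, and 5.48 ± 0.77 and 5.47 ± 0.31 (SD, n = 5) for unirradiated and irradiated WT. The dose difference in Il10-/- mice was -0.48, negative on 4 of 5 slides, and became -0.82 without irradiated replicate 4 and -0.97 without the weak arrays. In WT mice it was -0.01, but -0.87, -0.77 and -0.63 on slides 1 to 3 and 0.98 and 1.26 on slides 4 and 5. Neither passed. The irradiated genotypes differed by 0.86 (adjusted p 0.434, limma), and Socs3 was higher in Il10-/- on 5 of 5 slides, by 0.17 to 2.16. The difference became -0.04 after normexp correction.

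STAT dimers bind the letters TTCNNNGAA, which read the same on both strands. Promoter windows from 250 bases before to 50 after the start of transcription, taken from RefSeq on GRCm38.p6, were found for 7 of the 10 genes, with Il10, Il10ra and Il10rb missing. The letters occur in 2726 of 32851 such windows, or 8.30%. They occur in the Socs3 window, first base 154 before the start, and in 2 of 3 Sbno2 windows, 26 and 24 before the start, and not in those of Jak1, Tyk2, Stat3, Bcl3 and Nfil3. The windows of Socs3 (chr11:117969317-117969616, minus strand) and of 1 Sbno2 start (chr10:80102653-80102952, minus strand) are shown as windows that hold a match, with the matching letters in capitals. A match is a description of the sequence and says nothing of binding in these mice.
Socs3: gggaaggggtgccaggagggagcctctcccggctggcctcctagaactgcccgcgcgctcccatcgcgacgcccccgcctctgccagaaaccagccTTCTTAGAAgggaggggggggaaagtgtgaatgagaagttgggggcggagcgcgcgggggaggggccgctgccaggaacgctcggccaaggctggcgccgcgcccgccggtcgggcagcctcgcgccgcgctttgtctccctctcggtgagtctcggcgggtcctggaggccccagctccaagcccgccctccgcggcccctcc
Sbno2: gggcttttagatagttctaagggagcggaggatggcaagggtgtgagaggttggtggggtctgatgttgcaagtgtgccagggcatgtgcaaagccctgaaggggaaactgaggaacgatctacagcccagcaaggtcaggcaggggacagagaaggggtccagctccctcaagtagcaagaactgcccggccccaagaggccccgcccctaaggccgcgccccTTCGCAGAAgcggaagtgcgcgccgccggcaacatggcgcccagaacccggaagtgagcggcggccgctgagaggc

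Bcl3 encodes an IκB-like partner of NF-κB that is induced through STAT3. It read 6.51, 6.32, 6.27, 4.83 and 5.02 in unirradiated WT and 5.39, 5.46, 4.85, 4.57 and 5.29 in irradiated WT mice. In Il10-/- mice it read 6.79, 6.84, 6.13, 6.63 and 6.95 without and 5.28, 5.37, 5.50, 6.47 and 5.56 with radiation. Among Il10-/- mice the doses were separate except for irradiated replicate 4, which lay above unirradiated replicate 3. The Il10-/- mean differed by -1.03 (SE 0.27) with dose, negative on 5 of 5 slides, against a median of -0.10 over all probes tested. Its adjusted p in limma was 0.0206 but its unadjusted p missed 0.001, so it was not counted as changed. Without irradiated replicate 4 it passed, at -1.24 with an adjusted p of 0.00561, and over all alternatives the adjusted p ran from 0.00561 to 0.944. In WT mice the dose difference was -0.68 (SE 0.43, adjusted p 0.321, limma), negative on 4 of 5 slides, and without the 4 weak arrays it passed at -1.26 with an adjusted p of 0.00889, in a range of 0.00889 to 0.995 over alternatives. It was -0.04 after normexp correction and -2.16 with liver and heart muscle signal as covariates, without passing in either. The dose differences of the 2 genotypes were not shown to differ from each other, with an interaction of -0.35 (SE 0.50, adjusted p 0.884, limma). Between unirradiated genotypes Bcl3 differed by 0.88 (adjusted p 0.310, limma), which shrank to 0.30 without the weak arrays.

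Nfil3 encodes a transcription repressor that IL-10 induces in macrophages. It read 3.61, 3.60, 3.54, 1.89 and 2.18 in unirradiated WT, 3.64, 3.76, 3.44, 3.66 and 4.15 in irradiated WT, 4.60, 4.67, 4.07, 4.31 and 5.19 in unirradiated Il10-/- and 3.95, 4.05, 4.23, 5.75 and 4.69 in irradiated Il10-/- mice. All unirradiated Il10-/- arrays were above all unirradiated WT arrays, and after 7 Gy only irradiated WT replicate 5 reached into the Il10-/- range. The unirradiated difference was 1.60 (SE 0.43), or 3.04-fold, and positive on 5 of 5 slides, at 0.53, 0.99, 1.07, 2.41 and 3.01. Its adjusted p in limma was 0.135 and ran from 0.0622, with the slide as a replicate block, to 0.708, after normexp correction. It passed in 1 alternative, with all 4 groups in a single fit, at an adjusted p of 0.0687. On slides 4 and 5 the WT arrays were weak, and leaving out the 4 weak arrays gave 0.98 with an adjusted p of 0.272. The means were 4.57 ± 0.42 and 4.53 ± 0.73 in unirradiated and irradiated Il10-/-, 3.73 ± 0.26 in irradiated WT and 2.96 ± 0.85 (SD, n = 5) in unirradiated WT mice. The WT dose difference was 0.03, 0.16 and -0.10 on slides 1 to 3 and 1.77 and 1.98 on slides 4 and 5. The irradiated genotypes differed by 0.80 (adjusted p 0.432, limma), and Nfil3 was higher in Il10-/- on 5 of 5 slides, by 0.29 to 2.09. The difference became -0.06 after normexp correction, and the interaction was -0.80 (SE 0.55, adjusted p 0.722, limma).

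Sbno2, a helicase-like corepressor gene downstream of IL-10 and STAT3, had 2 probes. The first (A_52_P616392) read 3.03, 3.44, 3.54, 0.87 and 1.84 in unirradiated WT and 3.78, 4.14, 3.28, 3.25 and 4.50 in unirradiated Il10-/- mice. The second (A_55_P1959496) read 1.69, 1.90, 1.36, 1.99 and 0.96 in the first of these groups and 3.39, 3.21, 2.09, 1.57 and 2.97 in the other. Both overlapped between genotypes, through WT replicates 2 and 3 on the first probe and through Il10-/- replicate 4 on the second. The differences were 1.25 (adjusted p 0.264) and 1.07 (adjusted p 0.259) in limma, and without the 4 weak arrays they came to 0.45 and 1.00. After 7 Gy both were higher in Il10-/- on 5 of 5 slides, with mean differences of 0.76 and adjusted p of 0.462 and 0.427, and both means were slightly below 0 after normexp correction. With dose in Il10-/- mice the first probe differed by -0.34 (SE 0.36) and the second by 0.46 (SE 0.40), neither passing, and the second was -0.09 after normexp correction. In WT mice these differences were 0.14 and 0.77, and neither passed. The second was positive on 5 of 5 slides (0.04 to 1.71). The first was -0.80, -0.66 and -0.81 on slides 1 to 3 and 1.32 and 1.66 on slides 4 and 5, and changed sign under 4 of 13 alternatives.

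**Figure D2:**
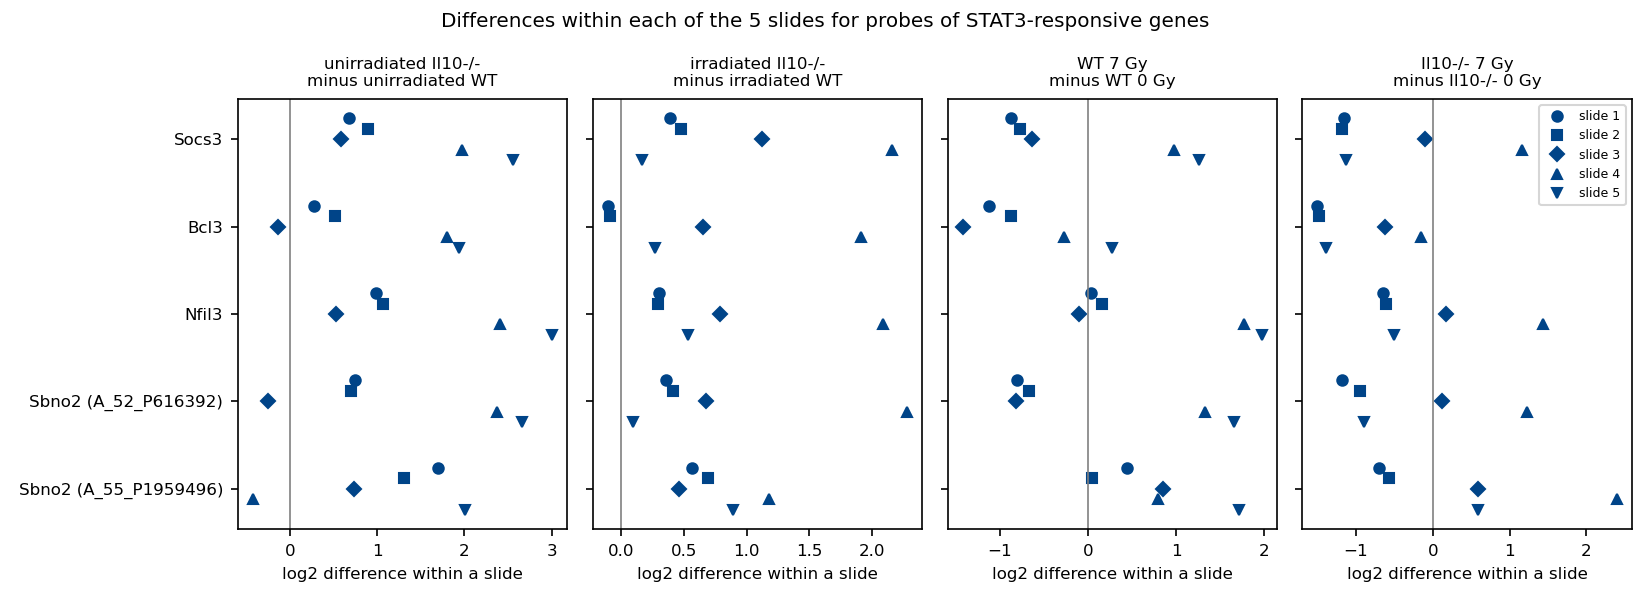
Differences within each of the 5 slides (horizontal axis, log2) for Socs3, Bcl3, Nfil3 and both Sbno2 probes (vertical axis), for 4 comparisons with their own axis ranges; each point is 1 slide. For Nfil3 the unirradiated genotypes differ by 0.53 to 3.01 and for Socs3 by 0.58 to 2.56, with the largest values on slides 4 and 5, where the unirradiated WT arrays were weak.

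Counted over the pathway, 0 of the 9 tested probes passed between unirradiated genotypes in limma, beside 0.845% of all probes (157 of 18581, all higher in Il10-/-), and 5 of 9 had an unadjusted p under 0.05, beside 16.1% of all. That 5 ranged from 3 to 6 when single arrays were left out, and was 3 without the 4 weak arrays and 0 of the 7 still tested after normexp correction. Scaling to 1 reference array gave 81 calls over all probes, 75 higher and 6 lower, 75th percentile scaling 41 and 2, and quantile normalization 24 and 1. The median difference of the 9 tested pathway probes was 0.89 against 0.36 over all tested probes. That 0.36 depends on the scaling: scaling to 1 reference array put it at 0.01 and the pathway's median at 0.60, the authors' processed values gave -0.04 and 0.69, and leaving out the 4 weak arrays gave 0.05 and 0.30. All 12 probes lay above 0, but 11 after scaling to the reference array, 10 after quantile normalization and 9 without the weak arrays. Among the 9 tested probes 2, those of Socs3 and Nfil3, had groups that did not overlap, as did 4.53% of all probes tested.

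For dose in WT mice limma passed 0 of the 9 probes, beside 6.8% of all, with 0 at an unadjusted p under 0.05, beside 29.0% of all, and the median was -0.01 against -0.02 over all. Without the weak arrays 6 of the 9 had an unadjusted p under 0.05, beside 41.1% of all, and these medians were -0.61 and -0.18, and with liver and heart muscle signal as covariates -0.54 and 0.28. For dose in Il10-/- mice it passed 0 of 9, beside 9.15% of all, with Bcl3 alone (1 of 9) at an unadjusted p under 0.05, beside 35.5% of all, and the median was -0.24 against -0.10, or -0.41 against -0.16 without the weak arrays. These comparisons share their unirradiated arrays with the genotype comparison. Between irradiated genotypes limma passed 0 of 9, beside 0.00538% of all, with 4 at an unadjusted p under 0.05, beside 11.1% of all, and a median of 0.67 against 0.08, or 0.43 against 0.06 without the weak arrays. Those 4 ranged from 0 to 5 when single arrays were left out and became 1 without the weak arrays. All 12 probes lay above 0 there, but 2 of 12 after normexp correction, which moved the median of all probes to -0.50. The single probe that passed was that of Pam, named after its values were seen, with means of -0.21 in WT and 2.97 in Il10-/- mice and an adjusted p of 0.0378. The Pam probe was well above background on 2 of all 10 WT arrays, so the size of its difference is not fixed. No probe passed there with the slide as a replicate block, with all 4 groups in 1 fit, with replicates 1 and 2 averaged, after normexp correction or without the weak arrays, and leaving out single arrays gave 0 or 1. With liver and heart muscle signal as covariates 228 of all probes passed (1.23%), and none of the 9. The test of whether genotypes responded differently to dose passed 0 of 9 pathway probes and 0 of all 18581 (0%), with 0 and 1300 at an unadjusted p under 0.05. With those covariates 7 of all probes passed that test, again none of the 9.

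**Figure D3:**
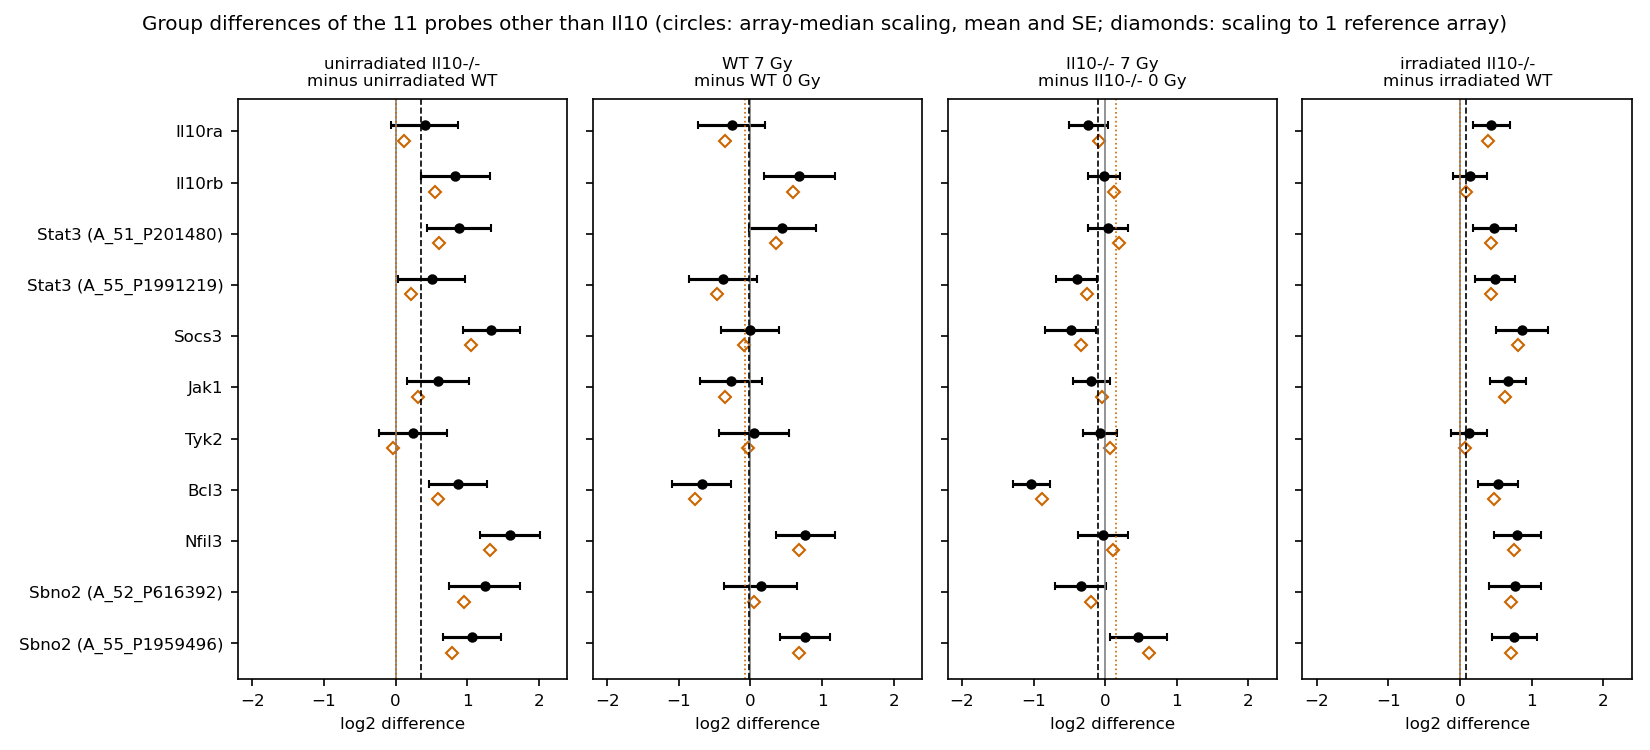
Difference between group means (horizontal axis, log2) for the 11 probes other than Il10 in 4 comparisons; circles use scaling by the array median, with bars of 1 SE from the limma fit without the 1.5-fold requirement, diamonds use scaling to 1 reference array, and the dashed and dotted lines give the median over all tested features under each. Between unirradiated genotypes the dashed line is at 0.36 and the dotted line at 0.01, and Nfil3 lies furthest right at 1.60.

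The wider pathway was read from 7 lists of genes, with 1 probe per gene. Alternatives for list genes were 3 other scalings (75th percentile, quantile, 1 reference array), the slide as a replicate block and leaving out the weak arrays. Liver and heart muscle covariates were also run, but the other alternatives, normexp correction among them, were not. Normexp correction passed 0 of 11432 probes between unirradiated genotypes. The counts below stand beside 0.845% of all probes passing between unirradiated genotypes, 6.8% for dose in WT and 9.15% for dose in Il10-/- mice. Of the other IL-10 family cytokines and receptors, 6 of 11 genes were above background and 5 were tested. Ifnlr1, a lambda interferon receptor chain, was higher in unirradiated Il10-/- than in unirradiated WT mice, with means of 2.75 and 0.09 and an adjusted p of 0.0345 in limma, while the median of the list was -0.35. It did not pass without the weak arrays, at 1.77 with an adjusted p of 0.204, nor after quantile normalization (0.185) or 75th percentile scaling (0.117), in a range of 0.000267 to 0.204 over alternatives. Among the other JAK and STAT genes, 0 of 5 tested passed in any of the 5 comparisons. Of 9 tested STAT3-activating receptor genes, Lifr, the receptor of leukemia inhibitory factor, was higher in unirradiated Il10-/- mice by 1.84 (adjusted p 0.0828, limma) and rose by 2.83 with dose in WT mice (adjusted p 0.0106, limma). With liver and heart muscle signal as covariates these became 1.27 and 0.56, and neither passed. The unirradiated difference of Lifr also did not pass under any of the 3 other scalings (adjusted p 0.128 to 0.185) or without the weak arrays (0.277), and its rise with dose did not pass after 2 of them (0.0122 and 0.0138) or without the weak arrays (0.071).

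Among SOCS, PIAS and phosphatase genes, 1 of 13 tested passed: Socs2, which rose by 1.51 with dose in WT mice (adjusted p 0.0141, limma) and differed by 1.11 in Il10-/- mice without passing (adjusted p 0.0334), with an interaction of -0.41 (adjusted p 0.844). The Socs2 call did not hold with the slide as a replicate block (adjusted p 0.0182), after 75th percentile scaling (0.0111) or without the weak arrays (0.0101), each with unadjusted p above 0.001, in a range of 0.00301 to 0.995 over alternatives. None of 13 tested regulators of Il10 transcription passed in any comparison. Of 12 tested genes that IL-10 is known to raise in macrophages, Msr1 and Mrc1, both scavenger or mannose receptors, rose with dose in WT mice by 2.88 (adjusted p 0.00735) and 2.22 (adjusted p 0.00465) in limma, or by 1.88 and 1.55 without the weak arrays. In Il10-/- mice they differed by 0.99 and 1.82 without passing, and neither interaction did, at adjusted p of 0.689 and 0.903. Of 9 tested genes that IL-10 is known to repress, Cd40 passed: it fell by 1.80 with dose in Il10-/- mice (adjusted p 0.00388, limma), against -0.76 in WT and an interaction of -1.04 (adjusted p 0.689). It did not pass with the slide as a replicate block (adjusted p 0.0212) or without the weak arrays (-1.40, adjusted p 0.0211), in a range of 0.00487 to 0.117 over alternatives. Between unirradiated genotypes the medians of the raised and the repressed genes were nearly equal, 0.67 and 0.61, beside 0.36 over all tested probes.

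Genes next to Il10 on chromosome 1 were listed because a targeted allele is inherited with its surroundings. Of 18 names, 16 were on the array and 12 were measured, but the Pigr probe maps to chromosome 19 in the array files. Between unirradiated genotypes 0 of 12 passed in limma: Mapkapk2 differed by 1.39, Ikbke by 1.06, Rassf5 by 0.77, Pigr by 0.56, Dyrk3 by 0.49, Cd55 by -0.01, Yod1 by -0.09, Il24 by -0.31, Eif2d by -0.37, Fcmr by -0.46, Fcamr by -0.55 and Srgap2 by -1.12. Their median was -0.05 against 0.36 over all tested probes. Dose did change some of them: Fcmr, the IgM receptor, fell by 4.69 in WT and fell by 5.36 in Il10-/- mice, Yod1 fell by 3.34 and fell by 3.06, and Cd55 fell by 2.91 and fell by 3.29, all past the test in limma with adjusted p between 2.29e-06 and 0.00115. Dyrk3 rose by 1.56 in Il10-/- mice (adjusted p 0.0024), against 1.79 in WT without passing (adjusted p 0.0209). With liver and heart muscle signal as covariates, 4 of 18581 probes passed for dose in WT mice, and none of those named here was among them. In that fit Fcmr differed by -5.17, Cd55 by -3.60, Msr1 by 2.21, Socs2 by 2.08 and Mrc1 by 1.88, while Yod1 came to -1.51. In Il10-/- mice Fcmr, Yod1, Cd55 and Dyrk3 still passed with these covariates, and Cd40 differed by -1.53 without passing (adjusted p 0.117). Normexp correction passed 0 of 11432 probes for dose in Il10-/- mice, so none of these genes passed there.

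The genes whose 4 group means were nearest to those of Il10 were sought among 22988 probes of 18776 genes, by the root mean square distance after centring each on its own mean. The 5 nearest to the measured means were Chil1, Ngp, Ltf, Mmp8 and Retnlg, at 0.95 to 1.07. Because the WT means of Il10 lie at or near background, the search was repeated with them at the floor used for the bound, a choice made after seeing the data. The 5 nearest were then Mmp8, Steap4, Crmp1, Chil1 and Asprv1, at 0.37 to 0.52, with Retnlg at place 19, Ngp at 307 and Ltf at 2639. Of the 10 WT arrays, Ngp and Crmp1 were well above background on 2, Ltf on 3 and Steap4 on 5. Their WT means were left as measured, so their distances and places are not exact. Chil1 and Mmp8 were among the 5 both times, and the other places depended on the level given to Il10 in WT mice. For Chil1 the means were 3.21, 3.17, 6.60 and 5.30, and for Mmp8 4.12, 4.05, 6.89 and 6.09, in unirradiated WT, irradiated WT, unirradiated Il10-/- and irradiated Il10-/-.

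Markers of blood cells were summed beside these values. All 10 whole-blood markers were measured, with Hba-a1 giving the brightest signal. Of 8 neutrophil markers 7 were measured, S100a9 giving the brightest signal and Ly6g not measured. Their summed level, relative to the array median on a linear scale, was 7856, 8141, 4564, 2997 and 3271 in unirradiated WT, 5335, 4795, 4441, 6931 and 4008 in irradiated WT, 21225, 20068, 15276, 10884 and 29408 in unirradiated Il10-/- and 7013, 6409, 11312, 26138 and 7789 in irradiated Il10-/- mice. Without radiation every Il10-/- array was above every WT array, and after 7 Gy Il10-/- replicate 4, the array on which Socs3, Bcl3, Nfil3, Stat3 and Sbno2 were high, stood out. In limma 4 of the 7 were higher in unirradiated Il10-/- mice, beside 0.845% of all probes, and the part of neutrophil number in the values of Socs3, Nfil3 or Il10 was not tested. B-cell markers (8 of 9 measured) had a median summed level of 1097 and 108 without and with dose in WT and 832 and 65.3 in Il10-/- mice, and 7 of the 8 fell with dose in each genotype, beside 6.8% of all probes passing in WT and 9.15% in Il10-/- mice. Monocyte markers (7 of 8 measured, Ly6c2 not) had medians of 750, 870, 1041 and 1152, and T-cell markers (9 of 9) 784, 583, 943 and 767, in unirradiated WT, irradiated WT, unirradiated Il10-/- and irradiated Il10-/-. In the same order, NK-cell markers (6 of 6) had medians of 293, 363, 481 and 616, erythroid markers (7 of 8) 27513, 21967, 28195 and 22364, and platelet markers (7 of 7) 7292, 15521, 16501 and 20640. The unirradiated Il10-/- arrays were split for platelet markers, at 18773, 19501, 5686, 4130 and 16501. In limma 0 of the 7 platelet markers passed in the genotype and dose comparisons. Of the single erythroid genes, 4 of 6 tested erythroid markers fell with dose in each genotype in limma, against the same shares of all probes. The median differences of the 7 measured erythroid markers were -2.14 in WT and -2.51 in Il10-/- mice. Among 6 tested monocyte markers, 1 rose and 1 fell with dose in WT and 2 fell in Il10-/- mice, against the same shares. Between unirradiated genotypes 1 of these 6 was higher in Il10-/-, beside 0.845% of all probes.

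Transcripts of liver and heart muscle were present in part of the samples, unevenly between groups. The 11 measured of 12 liver markers, with Apoa2 giving the brightest signal, summed to 122, 132, 137, 241 and 85.4 in unirradiated WT, 46608, 47020, 6781, 172 and 757 in irradiated WT, 132, 144, 5615, 12977 and 174 in unirradiated Il10-/- and 13777, 14255, 82.7, 5443 and 478 in irradiated Il10-/- mice. The 7 measured of 11 heart muscle markers summed to at most 272 in unirradiated mice and at most 5940 in irradiated ones. With both signals as covariates, 0 of the 9 pathway probes passed in any comparison, and the unirradiated differences of Socs3 and Nfil3 came to 1.55 and 1.89.

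**Figure D4:**
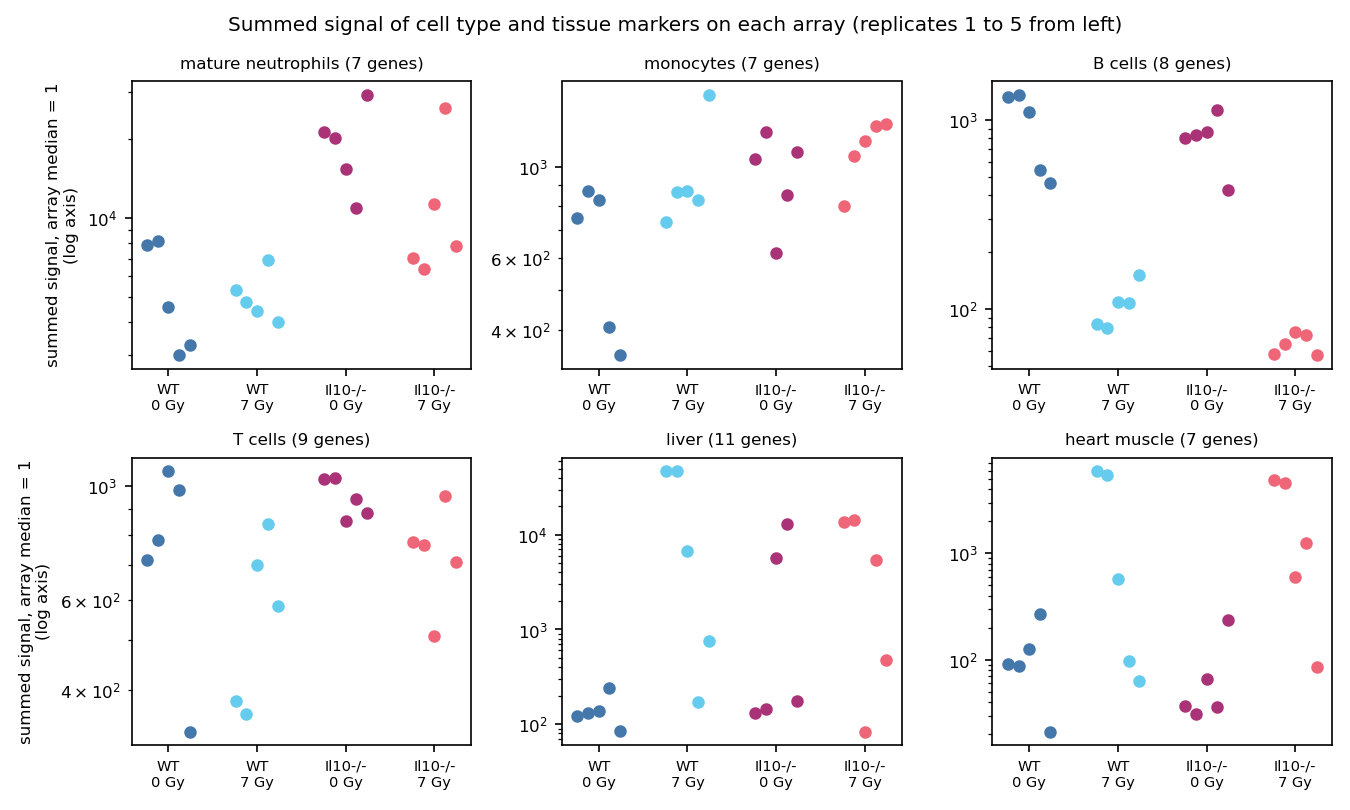
Summed level of 6 marker lists on each of the 20 arrays (vertical axis, log scale, relative to the array median), by group. Neutrophil markers run from 2997 to 8141 in unirradiated WT and from 10884 to 29408 in unirradiated Il10-/- mice, and B-cell markers fall with dose in both genotypes.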

How the data were processed

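Per the study's methods, single-color Cy3 RNA cleared of globin was hybridised to Agilent mouse 4x44K v2 arrays. The file headers give Feature Extraction 12.0.2.2, where the labels give 10.7. The deposited scanner files hold background-subtracted processed signals in units of intensity, and the authors' series table holds log2 values. Log2 processed signals minus the array median over 39429 non-control probes were fitted in R 4.3.3 with limma 3.58.1 (tables read with data.table, version 1.17.8), using 10 arrays per comparison of 2 groups and all 20 for the interaction. A probe was dropped if at least 25% of arrays marked it as uneven or not above background, or if fewer than 20% of arrays put it over 1.5-fold from its own median, which left 18581. Calls required p below 0.001 and a Benjamini-Hochberg rate below 10%. The pipeline was tested on simulated data. Python 3.11.15 with pandas 2.3.3 and matplotlib 3.10.9 counted motifs and drew the figures.

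The genes and lists were chosen with earlier results of these data known. Named were all probes of the 10 genes, called genes of each list (at most the 2 largest rises and falls), every measured neighbour of Il10, and the 5 genes nearest its pattern. Alternatives were other scalings (75th percentile, quantile, 1 reference array), the authors' processed values, normexp background correction with an offset of 50, no filters, the slide as a replicate block, all groups in 1 fit, a 5% rate alone, replicates 1 and 2 averaged, liver and heart muscle signal as covariates, and each array left out. List genes were run under part of these alternatives, as given above. Replicates were separate mice per the labels. Whether slides pair mice was checked by correlating arrays within slides. The values ran from -0.66 to 0.68 and no group pair was above 0.1 on all 5, so the main fit was unpaired. Only unirradiated against irradiated WT was positive on all 5, at 0.06 to 0.32, so an effect of the slide is not excluded.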

Additional observations from a re-analysis of the deposited data

Results flagged for a closer look

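Each probe was searched within each group of 5 arrays for 1 array far from the other 4, which picked out 5 of 48 groups (10.4%), where chance picks about 1 in 20. Il10rb read 1.54 in unirradiated WT replicate 5, with the others at 3.86 to 4.39, and Jak1 read 4.55 on the same array, with the others at 6.35 to 6.78. Tyk2 read 0.37 in unirradiated WT replicate 4, with the others at 2.76 to 3.04. In irradiated Il10-/- replicate 4, the first Stat3 probe read 7.73, with the others at 6.39 to 6.68, and Bcl3 read 6.47, with the others at 5.28 to 5.56. All 5 values came from 3 of the 4 arrays with under 40% of spots well above background. No probe moved 1 way with dose on every slide of WT mice and the opposite way on every slide of Il10-/- mice.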

How the results depend on the processing

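Of the values recomputed under alternatives, 131 moved and 6 newly passed. The other 1336 kept their sign and, where tested, their side of the test. Among these, values of probes without a test in the main fit also stayed within the replicate spread. For tested probes the size of the shift was not checked. The 1336 include values without a test, such as those of Il10, Il10rb and Tyk2 with the slide as a replicate block. Il10 had no test in the main fit, so its passes listed below are not among the 6. The count of pathway probes passing was 0 in all 5 comparisons and became 1 in these cases, whose cause was not tested except where the filter names it. Il10, removed by the background filter, passed between unirradiated and between irradiated genotypes (1 and 1) without filters, with limma adjusted p of 5.12e-05 and 0.00347, and (1 and 1) in the authors' processed values, which keep it. Nfil3 passed between unirradiated genotypes with all 4 groups in 1 fit (1). Bcl3 passed with dose in Il10-/- mice under quantile normalization (1, at -0.98), at a 5% rate alone (1) and without the 4 weak arrays (1, at -1.26), and with dose in WT mice without those arrays (1, at -1.26). Leaving out those 4 together was chosen after seeing the data.

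Leaving out single arrays gave counts of 0 to 1 for dose in Il10-/- mice, the 1 being Bcl3 without irradiated replicate 4, and 0 to 0 in the other 4 comparisons. With the slide as a replicate block the count was 0 in all 5, and Nfil3 reached an adjusted p of 0.0622. All calls between unirradiated genotypes numbered 157, but 384 with the block, 43 after 75th percentile scaling, 25 after quantile normalization, 20 without the weak arrays, 47 without unirradiated WT replicate 4 and 0 of 11432 after normexp correction. For dose in Il10-/- mice the 1700 calls became 0 of 11432 after normexp correction, 578 with liver and heart muscle signal as covariates and 815 with replicates 1 and 2 averaged, and for dose in WT mice the 1263 became 262, 4 and 754. Normexp adds 50 to every intensity, close to the Il10 signal itself, and reduced its genotype differences to 0.86 and 0.72. Signal over background limits what can be read of Il10 in WT mice, of the second Stat3 probe, and of the 4 weak arrays. The number of arrays limits precision throughout.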
